A study of Mus musculus with 48 samples.

Results

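In mouse kidney, 190 of the 10237 genes tested had RNA levels that rose and fell once a day while their ribosome footprints stayed nearly flat. Ribosome profiling (RPF-seq) sequences the short mRNA fragments that ribosomes shield from nuclease, and RNA-seq of the same lysates measures how much RNA each gene has. A cosine and sine of 24 h were fitted to log2(RPKM + 0.1) in the 24 RNA and the 24 RPF libraries, where RPKM is the read count scaled to the length of the coding sequence and the size of the library. Members were chosen by these fitted values: a gene was a member when its median RPKM was at least 2 in both assays, its fitted RNA peak was at least 1.5-fold above its trough with an R2 of at least 0.4, and its fitted RPF peak was less than 25% above its trough. Of 12423 genes listed in both assays, 10237 passed the RPKM minimum, 791 of these also met the RNA part of the rule, and 190 of the 791 had flat RPF. Of the other genes with rhythmic RNA, 241 had RPF folds between these 2 limits, 25% and 1.5-fold, and 360 had RPF folds of at least 1.5.

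The libraries came from whole kidneys of male C57BL/6JRj mice aged 11 to 12 weeks under 12 h of light and 12 h of darkness, with no other treatment or genotype in the labels. Zeitgeber time (ZT) counts hours from lights on, so ZT00 to ZT10 fell in the light and ZT12 to ZT22 in the dark. Each of 12 timepoints, 2 h apart, had 2 replicate pools, each a mixed lysate of 2 mice from which both assays were made, so the replicates were separate animals. Lysates were made with cycloheximide, a drug that holds cytosolic ribosomes on their mRNA, and ribosomal RNA was depleted from the total RNA. All 16 kidney segment markers were measured, among them Slc34a1 of the proximal tubule at a median of 2352 RNA RPKM, Umod of the thick limb at 2534, Aqp2 of the collecting duct at 120 and Nphs1 of podocytes at 6.15. In lysates of a whole organ, fewer cells of a type and less RNA per cell cannot be told apart.

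The footprints on a gene reflect its mRNA level multiplied by the number of ribosomes that each mRNA carries. Translation efficiency (TE), the RPF level divided by the RNA level, is the usual estimate of the second factor. When an mRNA cycles and its footprints do not, TE must run in the opposite phase, and such genes are described as buffered at the level of ribosome occupancy. Core clock genes usually behave in the other way, with mRNA and footprints that cycle together.

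The values that follow in this paragraph chose the members or are fixed by the choice, and are given as a description. Fitted RNA folds ran from 1.5 to 2.34 with a median of 1.63, against a median of 1.19 over all genes tested. RPF folds ran from 1.01 to 1.2499 with a median of 1.16, the same median as over all genes tested. For 168 of the 190 the upper 95% limit of the RPF fold was also below 1.5. The fitted TE fold had a median of 1.51 and ranged from 1.20 to 2.45. The TE peak lay a median of 11.4 h from the RNA peak, and more than 10 h from it in 188 members; in the other 2, mt-Co2 and Bri3, it lay 9.98 h and 9.99 h before it. Measured at the time of the RNA peak, the RPF amplitude was 18.5% of the RNA amplitude in the median member and had the opposite sign in 33. By limma at a false discovery rate of 0.05, a 24-h component was called in RNA for all 190 members (51.1% of all genes tested), in RPF for 36 (33.6% of all) and in TE for 155 (21% of all), and since the rule used these curves nothing is read from the counts. In RPF, 57 members had an unadjusted p below 0.05 by limma, and nothing is read from this count either. A gene called at the false discovery rate also has such a p, so the share of all genes tested was at least 33.6%.

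**Figure D1:**
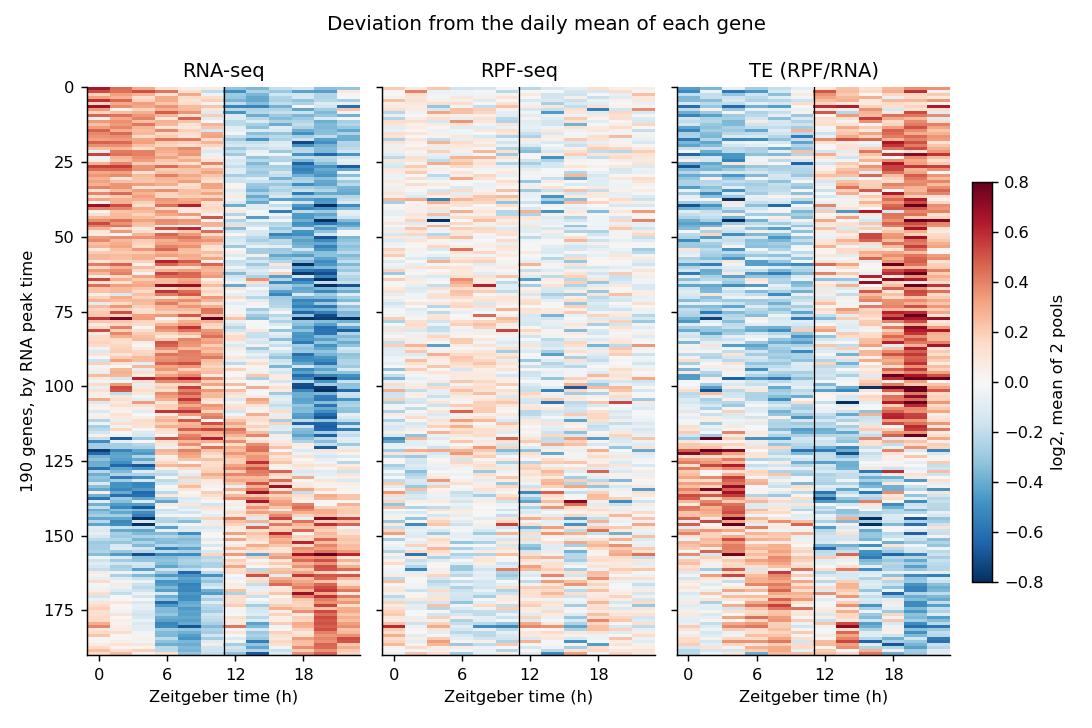
Heat map of the 190 members (rows, ordered by fitted RNA peak) over the 12 timepoints in order of ZT in h, for RNA, RPF and TE. Values are log2 deviations from each gene's mean, with colours clipped at 0.8 either way and a line between ZT10 and ZT12. The RNA panel shows 121 genes high in the light above 69 genes high in the dark, the TE panel shows the reverse, and the RPF panel shows little of either.

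The genes on either side of each limit had nearly the same values. Just inside the RNA limit were Zfp346 and Slc16a4 with RNA folds of 1.5002 and 1.5008, and just outside it were Qprt and Polr3gl at 1.4997 and 1.4991. At the RPF limit, Uba6 and Ptprd lay inside at folds of 1.2499 and 1.2482, with Ranbp3l and Erf outside at 1.2507 and 1.2514. Anp32b and Kdm6b were the members with the lowest RNA R2, at 0.406 and 0.416, and Rab6b and Slc22a29 missed the limit at 0.399999 and 0.396. Nat8f4 and Scube3 were members with median RPF levels of 2.00 and 2.07 RPKM, whereas Antxr1, at 2.00 RNA RPKM, and Zfp316, at 1.95 RPF RPKM, fell just below the minimum.

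RNA of the members peaked mostly in the middle of the light phase. Of the 190, 121 peaked in the light and 69 in the dark (36.3%), and 102 peaked between ZT04 and ZT08. The 2-h windows from ZT04 and ZT06 held 56 and 46 members, the windows from ZT00 and ZT22 held 0 and 2, and the windows from ZT16, ZT18 and ZT20 held a smaller group of 18, 16 and 13. Among the 360 genes whose RNA and RPF both cycled, 66 peaked between ZT04 and ZT08, which was 18.3% against 53.7% of members, and 48.1% peaked in the dark. The 241 genes with RPF folds between the limits lay nearer to the members, with 37.3% peaking between ZT04 and ZT08 and 33.6% in the dark. Peak time was not part of the rule, but it comes from the curves that the rule used, so these shares carry no test. The standard error of the RNA peak had a median of 0.632 h, and for all 190 members the peaks fitted to each replicate series alone lay within 3 h of each other.

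**Figure D2:**
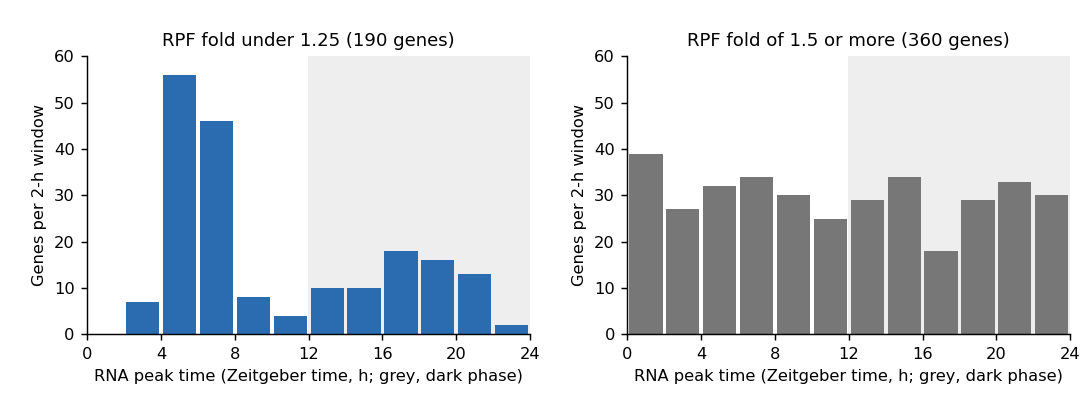
Number of genes by fitted RNA peak in windows of 2 h of ZT, for the 190 members and for the 360 genes with an RPF fold of at least 1.5, with the dark phase shaded. Members gather from ZT04 to ZT08 with 56 and 46 genes in those windows, while the other genes spread over the day with 18 to 39 per window.

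The base composition of the coding sequence differed with the RNA peak time of the members. Median G and C content was 54.8% in the 63 members that peaked from ZT00 to ZT06, 59.2% in 58 from ZT06 to ZT12, 53.7% in 38 from ZT12 to ZT18 and 40.9% in 31 from ZT18 to ZT24. The 791 genes that met the RNA part of the rule were also highest from ZT06 to ZT12 and lowest from ZT18 to ZT24, at 55.2%, 58.3%, 55.5% and 47.3%, and so did the 360 with RPF folds of at least 1.5, at 55.3%, 58.0%, 56.3% and 50.9%. Coding sequences were also short in the dark group, with a median of 777 nt against 1251 nt for members that peaked in the light. The median was 651 nt in the members from ZT12 to ZT18 and 1045.5 nt in those from ZT18 to ZT24. The first 30 coding bases of 2 genes of the ZT04 to ZT08 group and 3 of the ZT18 to ZT22 group, all among the 3 nearest the median G and C content of their group, show what the difference looks like and how far single genes depart from it (GENCODE coding sequence on GRCm38, 5′ to 3′, with G and C in capitals).
Zfp839, chr12:110850318-110850347, plus strand: atGGCaGGCGCGGaaCCGGaGtCCGGGaat
St3gal2, chr8:110957712-110957741, plus strand: atGaaGtGCtCtCttCGGGtGtGGttCCtC
Slc22a22, chr15:57263642-57263671, minus strand: atGGattttGatGaaattCtaCatCatGta
Tiparp, chr3:65531265-65531294, plus strand: atGGaaGtGGaaaCCaCtGaaCCtGaGCCa
Uba6, chr5:86172709-86172738, minus strand: atGGaGCGGtCCGaGCCGttGGCtGtGCtt
Zfp839 and St3gal2 peaked in the light and held 20 and 16 G or C of the 30 bases. Slc22a22, Tiparp and Uba6 peaked in the dark and held 8, 15 and 19, so the starts alone do not part the groups as the whole coding sequences do (56.7% and 40.7% in the median gene).

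The RNA libraries themselves differed in how level varied with G and C content, and this moved with the time of day. In each library the slope of log2 level on coding G and C content was taken after subtracting every gene's mean. It was taken over the 10184 genes tested whose content was known. In the RNA libraries the slope per 10 percentage points was lowest at -0.16, had a median of 0.02 and was highest at 0.27 in the light pools, against -0.22, -0.06 and 0.23 in the dark pools. Light and dark pools overlapped, but a 24-h curve peaking at ZT8.67 explained an R2 of 0.381 of the RNA slopes (two-sided permutation test, 100000 resamples, p = 0.00742, 24 pools). Replicate series 1 alone gave an R2 of 0.732 (permutation p = 0.0069) and series 2 an R2 of 0.184 (permutation p = 0.394). The RPF slopes gave an R2 of 0.00743 (permutation p = 0.923).
When a quadratic trend with G and C content was removed from every library, an alternative added after the data were seen, 123 genes met the rule, of which 102 were members. The content was known for 186 of the 190 members. Genes without it, among them 9030619P08Rik, which still met the rule, were left unchanged. Of the members that peaked from ZT04 to ZT08, 58 of 102 still met the rule, and of those from ZT12 to ZT18, 32 of 38. Of the 31 members that peaked from ZT18 to ZT24, 2 did. Fkbp1a, Capzb, Gnb1, Mbd3, Setd1b, Anp32b, Hsd11b2, Snrpd3, Dad1, Sucnr1 and mt-Nd3 were among the 102. Members named here that no longer met the rule included Tmed10, Foxo4, Kdm6b, Lman2l, Golt1b, Pigu, Nfkbia, Tiparp, Scube3, Col4a4, Ogn, Cenpq, Cks2, Pcbp1, Ppih, Prss8, mt-Co2, mt-Atp6, 2310022A10Rik and the carriers Slc12a7, Slc22a22 and Slc16a4.

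**Figure D3:**
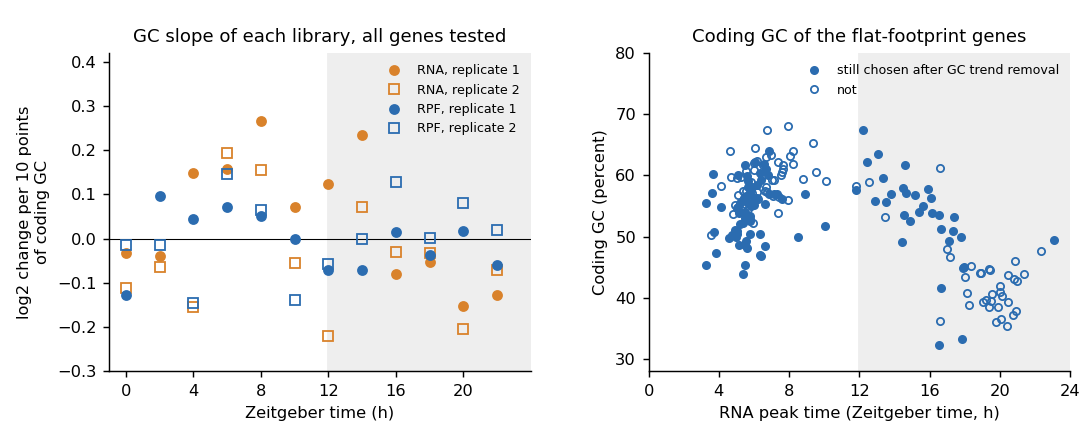
Slope of log2 level on coding G and C content (log2 units per 10 percentage points, the 10184 of 10237 genes tested with a known content) in each of the 24 RNA and 24 RPF libraries against ZT in h, points marked by replicate series. The RNA slopes run from -0.22 to 0.27 and follow a daily curve that is clearer in series 1 than in series 2, and the RPF slopes run from -0.14 to 0.15 with no such curve.

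Signalling genes made up 27 of the 190 members, 18 of them with an RNA peak in the light. Fkbp1a, the isomerase that binds rapamycin and FK506, had 39.7, 60.7 and 72.9 RNA RPKM in the lowest, median and highest light pool and 28.02, 34.4 and 40.1 in the dark pools. In RPF it had 195, 261 and 285 in the light and 220.4, 238 and 268 in the dark. Only the top of the dark RNA range touched the bottom of the light range, whereas the dark RPF range lay wholly within the light one, and the fitted folds were 2.03 in RNA (log2 range 1.02, SE 0.15) and 1.06 in RPF (0.09, SE 0.09).
Gnb1, a beta subunit of heterotrimeric G proteins, had 70.0, 92.0 and 101 RNA RPKM in the light and 50.3, 57.2 and 64.9 in the dark. The RPF values were 61.9, 84.2 and 107 in the light and 77.9, 86.7 and 116 in the dark, so RNA separated light from dark pools and RPF did not. Tgfb1, the growth factor that drives matrix deposition in injured kidney, had 6.45, 8.21 and 10.2 RNA RPKM in the light and 3.92, 5.39 and 6.54 in the dark, with RPF at 4.68, 6.47 and 7.27 and at 4.76, 5.84 and 7.38. The 2 RNA ranges of Tgfb1 met at one edge, while its RPF ranges covered the same span.
The adaptor Grb2, which links growth factor receptors to Ras, had an RNA fold of 1.79 and peaked at ZT5.00. Rraga, a small GTPase that brings mTORC1 to the lysosome, had an RNA fold of 1.75 and peaked at ZT4.57. In the dark group, Sucnr1, the succinate receptor, had 30.8, 40.5 and 46.2 RNA RPKM in the light and 45.0, 56.6 and 70.5 in the dark, with RPF at 54.8, 79.7 and 96.2 and at 60.03, 79.5 and 105. Its RPF medians in light and dark were nearly equal, and its RPF fold of 1.02 was among the 3 lowest. Of 12 growth factors and morphogens tested, 6 were members: Tgfb1, Pdgfc, Vegfc, Scube3, the Wnt acyltransferase Porcn and Znrf3, a ligase that removes Wnt receptors. The median RNA and RPF folds of that list were 1.54 and 1.19, and 8 of the 12 met the RNA part of the rule. This list and the gene lists below were written with earlier results of these data known. Of all 10237 genes tested, 190 were members and 791 met the RNA part, and nothing is read from the list counts.

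Chromatin and transcription genes gave 26 members, and 20 of these peaked in the light. Setd1b, a histone H3K4 methyltransferase, had 3.23, 6.60 and 7.39 RNA RPKM in the light and 2.08, 3.28 and 4.49 in the dark. Its RPF level stayed between 1.77 and 2.58 in all 24 pools, so the light and dark RPF ranges overlapped widely at a low level. Mbd3, a subunit of the NuRD repressor complex, had 46.5, 53.8 and 58.7 RNA RPKM in the light and 24.1, 32.2 and 40.6 in the dark, and its RNA ranges did not overlap.
The RPF level of Mbd3 was 20.6, 24.2 and 27.1 in the light and 16.4, 21.6 and 28.99 in the dark, and these did overlap. Anp32b, a nuclear histone chaperone, had 17.2, 24.7 and 36.5 RNA RPKM in the light and 8.22, 12.2 and 35.2 in the dark. The highest dark pool of Anp32b was nearly as high as the highest light pool. Of 21 chromatin and transcription regulators on the list, 8 were members, among them Kansl3, Kdm6b, Mbd3, Setd1b, Gatad2b, Foxo4 and Foxi1. The list's median RNA and RPF folds were 1.62 and 1.22, and 17 of the 21 met the RNA part of the rule. Over all 10237 genes tested, 190 were members and 791 met the RNA part. The list was written with earlier results of these data known, so its counts and medians are a description only. Kansl3, a subunit of a histone acetyltransferase complex, and Foxi1, the regulator of intercalated cells, peaked in the dark at ZT12.9 and ZT14.7.

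Cytoskeleton, adhesion and matrix genes peaked mostly in the light, 23 of 26, as did ubiquitin and folding genes, 9 of 10. Capzb, which caps the barbed end of actin filaments, had 103, 112 and 121 RNA RPKM in the light and 66.3, 78.6 and 98.2 in the dark. RPF of Capzb was 208, 226 and 239 in the light and 206, 224 and 233 in the dark. No dark RNA pool reached the lowest light pool, the RPF ranges were all but identical, and the RPF fold of 1.01 was the lowest of all members (log2 range 0.02, SE 0.03).
Parvb, a focal adhesion protein that binds integrin-linked kinase, had 4.12, 7.73 and 9.27 RNA RPKM in the light and 3.35, 4.78 and 6.56 in the dark, with RPF between 6.10 and 11.1 over all pools. Its RNA and RPF ranges both overlapped between light and dark. The members on the matrix list were 2 of 11, Col4a4, a basement membrane collagen chain with an RNA peak at ZT4.67, and the proteoglycan Ogn with a peak at ZT19.4. Cldn16, the tight junction protein for magnesium uptake in the thick limb, was the only one of 16 kidney segment markers among the members (RNA fold 1.53, peak ZT14.4).

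Secretory pathway, vesicle and lysosome genes gave 28 members, split between 15 light and 13 dark peaks. Tmed10, a cargo receptor between endoplasmic reticulum and Golgi, had 96.5, 107 and 121 RNA RPKM in the light and 66.8, 77.0 and 94.6 in the dark. In RPF, Tmed10 had 225, 239.9 and 263 in the light and 224, 258 and 285 in the dark, so the RNA was lower and the RPF median higher in the dark. TE of Tmed10, as RPF over RNA, was at most 2.55 in the light and at least 2.67 in the dark, with no overlap.
Dad1, a subunit of the oligosaccharyltransferase that glycosylates new proteins, ran the other way with 88.8, 117 and 149.7 RNA RPKM in the light and 143, 166 and 173 in the dark. Its RPF level was 219, 257 and 300.2 in the light and 237, 268 and 304 in the dark. The RNA ranges met at 1 edge, the RPF ranges nearly coincided, and TE was 1.85 to 3.04 in the light and 1.48 to 1.84 in the dark. Of 20 secretory pathway and ER genes listed, 8 were members (Lman2l, Mpdu1, Tmed10, Dad1, Golt1b, Porcn, Tmem258 and Pigu) and 5 met the RNA part of the rule with RPF folds of at least 1.5. The list's median RNA and RPF folds were 1.57 and 1.23, and 15 of the 20 met the RNA part of the rule. It too was written with earlier results of these data known, so its counts and medians are a description only. Mospd3, a membrane protein of the endoplasmic reticulum, had an RNA fold of 2.28 and an RPF fold of 1.20. Rab7, the GTPase of late endosomes, and Atp6v0c, a proton channel subunit of the vacuolar ATPase, peaked at ZT5.01 and ZT7.16.

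Mitochondrial genes were mostly dark peaking, with 12 of 14 members. The group held 4 of the 12 measured genes of the mitochondrial genome: mt-Nd3 of complex I, mt-Co2 of complex IV, and mt-Atp8 and mt-Atp6 of the ATP synthase. mt-Nd3 had 5026, 6435 and 13931 RNA RPKM in the light and 5894, 13330 and 16996 in the dark, and its RPF level was 857, 1178 and 2091 in the light and 1056, 1361 and 1980.4 in the dark. Both ranges overlapped, and the RPF maximum of mt-Nd3 came from the ZT04 replicate 2 pool.
mt-Atp6 had 8873, 14832 and 19584 RNA RPKM in the light and 14735, 21849 and 27689 in the dark, with RPF at 794, 1139 and 2016 and at 778, 1162 and 1812. The RNA of the 12 genes summed to between 90508 and 197528 RPKM with a fitted fold of 1.495 (peak ZT17.5), and their RPF sum had a fold of 1.17. The list's median RNA and RPF folds were 1.47 and 1.18. mt-Atp8 and mt-Atp6 overlap by 43 nt, so their reads are partly shared. Cycloheximide does not hold mitochondrial ribosomes, and what that does to these RPF values was not tested.
The nuclear members included Atp5g2, a c subunit of the ATP synthase (RNA fold 1.69, peak ZT15.2), the complex I assembly factors Ndufaf4 and Ndufaf8 (peaks ZT17.9 and ZT12.2) and Mrps36 (ZT17.1). C1qbp, a matrix protein needed for mitochondrial translation, peaked in the light at ZT5.18 and had 57.4 to 73.8 RNA RPKM in the light against 32.8 to 56.7 in the dark.

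Metabolism and membrane transport gave 18 members, 10 of them light peaking. Cyb561d1, of the cytochrome b561 family of transmembrane electron carriers, had an RNA fold of 2.34 and an RPF fold of 1.05, at a median of about 36 RNA reads. With a pseudocount of 1 its log2 RNA range fell from 1.22 to 0.93, below that of mt-Nd3, Mospd3, Anp32b, Fkbp1a and Mbd3. Its RNA level was 2.66, 4.03 and 5.11 RPKM in the light and 1.27, 2.49 and 3.83 in the dark, ranges that overlapped. Its RPF level was 3.94, 5.11 and 5.86 in the light and 3.97, 5.23 and 7.07 in the dark.
Hsd11b2, the enzyme that inactivates corticosterone in aldosterone target cells, had 52.2, 92.2 and 105 RNA RPKM in the light and 41.3, 55.7 and 70.3 in the dark. Its RPF level was 159.6, 205 and 219 in the light and 204, 226 and 259.8 in the dark, so both ranges overlapped and the medians differed in opposite directions. TE of Hsd11b2 was 1.796 to 3.06 in the light and 3.08 to 5.15 in the dark, without overlap. Hsd11b2 was 1 of 3 members on the steroid and glucocorticoid list of 16, with the NF-kB inhibitor Nfkbia and the ADP-ribosyltransferase Tiparp, and 6 of the 16 met the RNA part of the rule with RPF folds of at least 1.5. Of 35 renal carriers and channels tested, 4 were members: the potassium chloride cotransporter Slc12a7 (peak ZT7.93), the organic anion carrier Slc22a22 (ZT18.1), the monocarboxylate carrier family member Slc16a4 (ZT18.0) and Cldn16. That list had median RNA and RPF folds of 1.27 and 1.22.

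RNA processing and translation gave 12 members, ubiquitin and folding genes 10, and cell cycle and DNA repair genes 6. Snrpd3, a core protein of the spliceosomal snRNPs, had 70.6, 114 and 134 RNA RPKM in the light and 56.7, 69.4 and 80.8 in the dark. The RPF values of Snrpd3 were 191, 279 and 315 in the light and 255, 287 and 369 in the dark. Both ranges overlapped, but TE separated them, at 1.69 to 3.32 in the light and 3.68 to 5.28 in the dark.
The splicing and RNA binding list gave 5 members of 22 (Snrpd3, Hnrnpl, Hnrnpa1, Pcbp1 and Ppih), and another 5 met the RNA part of the rule with RPF folds of at least 1.5. Rpl6, a protein of the large ribosomal subunit, and Eif1, which guides start codon choice, were the only members among 16 ribosomal proteins and translation factors, with RNA peaks at ZT14.9 and ZT3.28. Pfdn2, a subunit of the prefoldin chaperone for actin and tubulin, had 32.2, 49.0 and 69.0 RNA RPKM in the light and 26.8, 36.9 and 66.4 in the dark, with RPF between 91.8 and 142 throughout. Its RNA ranges overlapped, and its peak, ZT8.89, lay nearer to lights off than that of most light members. Anapc2, a subunit of the anaphase-promoting complex, separated light from dark in RNA (27.7 to 34.6 against 16.7 to 25.9 RPKM). From the S phase and mitosis list, 3 of 15 genes were members: the centromere protein Cenpq, the lamin Lmnb1 and the cyclin-dependent kinase subunit Cks2. The remaining 23 members had no role assigned, among them 9030619P08Rik (RNA fold 2.02, peak ZT18.7) and 2310022A10Rik (1.97, ZT5.91).

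Other lists held no member. These were the core clock and its outputs (0 of 16 tested, of which 15 met the RNA part of the rule with RPF folds of at least 1.5), the hepatocyte (0 of 18), erythroid (0 of 8), leukocyte (0 of 13) and perirenal fat lists (0 of 2), the interferon response (0 of 13) and apoptosis genes (0 of 11). Members were 190 of the 10237 genes tested, so nothing is read from counts of 0 in lists this short. No adrenal marker was measured in both assays. The NF-kB list gave 1 of 6, Nfkbia. Summed RNA of the 9 measured erythroid genes ranged from 207 to 467 RPKM in the light and from 185 to 560.3 in the dark, that of 30 hepatocyte genes from 260.2 to 618 and from 289.9 to 650.1, that of 14 leukocyte genes from 540.1 to 815 and from 522 to 837, and that of 6 fat genes from 113 to 181 and from 107 to 145, and their part in the members' RNA was not tested.

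In single pools, 21 members had RNA ranges that did not overlap between light and dark (0.508% of all genes tested), 9 had TE ranges that did not overlap (0.274% of all) and 0 had such RPF ranges (0.107% of all). The rule used these libraries, so nothing is read from the counts. The 9 were Snrpd3, Tmed10, Dad1 and Hsd11b2, whose TE ranges stand above, with Arf3, Gnb1, Anapc2, Capzb and Sucnr1. TE of Arf3, a GTPase of the Golgi, was 1.75 to 2.84 in the light and 2.90 to 4.83 in the dark. TE of Gnb1 was 0.698 to 1.18 and 1.253 to 1.86, and that of Capzb 1.76 to 2.19 and 2.24 to 3.51. In 7 of the 9 TE was higher in the dark, and in Dad1 and Sucnr1 it was higher in the light.

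Whether flat footprints recur in other animals was tested by choosing genes in one replicate series and measuring them in the other. The rule applied to the 12 pools of series 1 chose 307 genes. In series 2 a 24-h RNA component was called by limma in 88 of these (28.7%). The share was 11.1% of all genes tested and 43.2% of the 1184 genes that met the RNA part of the rule in series 1. An RPF component was called in 3 of the 307 (0.977%, against 4.35% of all and 18.1% of the 1184). The 3 were Clec2d, Csgalnact1 and Med20, none of them a member. At the RNA peak time fitted in series 1, the median log2 range in series 2 was 0.44 in RNA and 0.05 in RPF, so the RPF carried 12.1% of the RNA amplitude.
A 24-h TE component in series 2 was called by limma in 0 of the 307 genes (0.00977% of all genes tested). At an unadjusted p below 0.05 it was found in 129 of them (42.0%, against 17.5% of all and 28.5% of the 1184). TE is RPF over RNA of the same pools, so its direction follows from the RNA and RPF ranges and is no separate result. At the RNA peak time fitted in series 1, TE ran opposite to RNA in 279 of 307 genes (90.9%), with a median log2 range of -0.37. The same held for 903 of the 1184 genes that met the RNA part of the rule in series 1, which include the 307 (76.3%), and for 58.5% of those with RPF folds of at least 1.5. The RPF peak was again less than 25% above its trough in 221 of the 307 genes, against 420 of the 1184, and 58 met the whole rule again, against 109. Over all genes tested the median RPF fold in the 24 libraries was 1.16, so so low a peak was the usual case. The share of all genes tested in series 2 is not given for these counts, and nothing is read from them. Among the 480 genes chosen in series 1 with RPF folds of at least 1.5 in place of flat RPF, the median log2 ranges in series 2 were 0.69 in RNA and 0.64 in RPF, a share of 92.3%.

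The reverse choice gave a larger RPF share. Series 2 chose 235 genes, of which 160 had a called RNA component in series 1 (68.1%). The share was 37.9% of all genes tested and 77.4% of the 868 genes that met the RNA part in series 2. An RPF component was called in 40 of the 235 (17.0%, against 20.2% of all and 53.2% of the 868). The median log2 ranges in series 1 were 0.55 in RNA and 0.17 in RPF, a share of 30.6%. TE, again fixed by RNA and RPF, ran opposite to RNA in 214 genes (91.1%). The share was 74.4% of genes that met the RNA part in series 2 and 57.0% of those with RPF folds of at least 1.5. A TE component was called in 0 of the 235 genes (0.0195% of all). At an unadjusted p below 0.05 it was found in 120 (51.1%, against 24.1% of all and 32.8% of the 868).
The 58 genes chosen in both series included 56 members, of which 41 peaked from ZT04 to ZT08 and 14 in the dark. Among them were Cyb561d1, Mospd3, Anp32b, Fkbp1a, Tgfb1, Snrpd3, Gnb1, Grb2, Rraga, Capzb, Dad1, Foxo4 and Slc12a7. Of the 190 members, 34 were chosen in neither series alone, so membership rests for them on the 2 series together.

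In median profiles of the held-out series the light group kept its shape. The 116 genes chosen in series 1 with peaks from ZT04 to ZT08 had a median RNA deviation above 0 in 6 of 6 light pools of series 2, at 0.04 to 0.33, and in 0 of 6 dark pools, at -0.38 to -0.10, and the RPF median stayed between -0.06 and 0.10. The 119 genes chosen in series 2 gave the same split in series 1, with RPF between -0.07 and 0.11. RPF of the 119 genes had the phase of their RNA at a smaller size, with a median above 0 in 5 of 6 light and 1 of 6 dark pools. It spanned 0.17 log2 units against 0.64 in RNA. RPF of the 116 genes was above 0 in 3 of 6 light and 3 of 6 dark pools of series 2, with a span of 0.16 against 0.70 in RNA. For dark peaks the 72 genes chosen in series 2 were above 0 in 6 of 6 dark and 0 of 6 light pools, and the 133 chosen in series 1 in 5 of 6 dark and 1 of 6 light pools. RPF of the 72 genes had the phase of their RNA at a smaller size, with a median above 0 in 6 of 6 dark and 1 of 6 light pools of series 1 and a span of 0.19 log2 units against 0.40 in RNA. RPF of the 133 genes was above 0 in 4 of 6 dark and 3 of 6 light pools of series 2, with a span of 0.25 against 0.56 in RNA.

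A 12-h RPF rhythm, which the rule did not use, was called by limma in 3 members (1.58%, against 0.889% of all genes tested), and 38 had an unadjusted p below 0.05 (20% against 16.8% of all). The 3 were Ndufaf8 (adjusted p = 0.0165 by limma), the epithelial protease Prss8, which activates the sodium channel ENaC (adjusted p = 0.0327), and Pstpip2, an actin-associated adaptor (adjusted p = 0.037). Their 24-h RPF folds were 1.18, 1.19 and 1.16. Without the ZT04 replicate 2 pool the 12-h count was 7. The share of all genes tested is not given for that setting, so nothing is read from the change.

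The start regions of the members were read for clock motifs, in windows from 250 bases before to 50 bases after the first listed RefSeq start site (GRCm38.p6), found for 150 of the 190. The E-box CACGTG, the site of CLOCK and BMAL1, stood in 10 (6.67%), against 10.8% of 8117 windows of all genes tested and 11.4% of 273 windows of genes with RPF folds of at least 1.5. The D-box TTATGTAA or TTACATAA stood in 0 windows, against 0.542% of all. The cAMP element TGACGTCA stood in 6 (4% against 3.22%), the heat shock motif GAANNTTC in 8 (5.33% against 5.64%) and the ROR element TAGGTCA or TGACCTA in 4 (2.67% against 2.07%). A match to these letters is no proof of a site. The 3 members with the highest RNA fold among those whose E-box window lay wholly upstream are printed with the E-box in capitals, 5′ to 3′ on the gene's strand.
Anp32b, chr4:46450820-46450845, plus strand, E-box from -96: tcagccagccCACGTGcgacccgagg
Zfp944, chr17:22361414-22361439, minus strand, E-box from -29: ttagcgctgtCACGTGaccggaaccg
Slitrk6, chr14:110755342-110755367, minus strand, E-box from -208: catttaaagcCACGTGcaatcatttc
Their RNA peaked at ZT6.40, ZT20.4 and ZT16.6, so the same letters stood before genes of different phase.

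Depth differed between light and dark pools as well. Effective depth, estimated from the step between low values, ran from 9.78 to 33.5 megareads (M) in RNA and from 15.5 to 34.9 M in RPF, with light and dark medians of 18.7 and 13.3 M in RNA and of 26.0 and 20.1 M in RPF, and its part in the rhythms was not tested. The median member had about 335 RNA and 480.4 RPF reads, and 30 and 17 members had under 100. The RPF library of the ZT04 replicate 2 pool listed 125 of the genes tested at 0, against 14 in the next and a median of 1. Without that pool in both assays 204 genes met the rule, 158 of them members, and Anp32b, Tmed10, Foxi1, Pdgfc, Scube3, Slc22a22, Golt1b, mt-Nd3, mt-Co2 and mt-Atp8 were among those that did not. The RNA and RPF folds were then 2.15 and 1.18 for Anp32b, 1.83 and 1.11 for mt-Atp8, and 2.17 and 1.36 for mt-Nd3, whereas mt-Atp6 still met the rule. Named pseudogenes exist for 10 members, Fkbp1a, Gnb1, Anp32b, Tmed10 and Rab7 among them, and how their reads were shared is uncertain.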

How the data were processed

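Reads were aligned and counted by the authors. The submitters' processing notes name CASAVA 1.82, cutadapt, Bowtie2 2.2.1, TopHat2 2.0.11, Cufflinks 2.2.1, edgeR, GRCm38.p2 and mm10. The deposited values were RPKM over coding sequences, scaled by the authors by upper quantile, so a change shared by all genes cannot be seen. Curves of 24 h were fitted to log2(RPKM + 0.1). Tests used limma 3.58.1 in R 4.3.3 (lmFit, eBayes with trend, moderated F, Benjamini-Hochberg over 10237 genes, false discovery rate 0.05), after a check on simulated data. Python 3.11.15, numpy 2.4.6 and scipy 1.17.1 were used for the rest. Coding sequences came from GENCODE M21 and start windows from RefSeq. Depth rested on RPKM multiplied by coding length, for which 56.8% to 75.2% of low values per library lay within 0.1 of a whole read, so it is approximate.

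The members, roles and gene lists were chosen with earlier results of these data known. Named genes were the 12 members with the largest RNA fold and replicate peaks within 3 h, members on a list, the nearest genes on either side of each threshold and members chosen in both series; others were chosen for their role. Alternatives covered pseudocounts, RPKM minimum, normalisation, thresholds, replicate series, a replicate block, a 12-h term, base composition, coding length and the ZT04 replicate 2 pool, the last 3 chosen after seeing the data. A sequence and a gene are not reported here.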

Additional observations from a re-analysis of the deposited data

How the results depend on the processing

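The number of members, 190, moved most with the footprint limit (87 with a limit of 15% above the trough, 292 with 35%), with base composition (123 after removing the trend with coding G and C content, 120 after also removing coding length) and with the replicate series (235 to 309 when 1 series was left out, with 109 and 103 shared). It was 154 with a pseudocount of 1, 196 with 0.01, 224 and 231 with an RPKM minimum of 0.5 or none, 179 after quantile normalisation, 184 after median centring and 244 with a 12-h term, of which 107 were shared. The share of dark peaks was 43.6% after quantile normalisation and 30.6% to 43.0% when a replicate was left out. The held-out TE count of 0 became 3 of 240 genes chosen with a pseudocount of 1, against 0.0586% of all genes tested (Snrpd3, Dad1 and Med20, limma adjusted p = 0.0487 each). The held-out RPF share of 12.1% was 7.73% after median centring, 9.11% after quantile normalisation, 18.1% after removing base composition and length, 15.7% without the ZT04 replicate 2 pool and 30.6% with the series exchanged. The 12-h count of 3 was 7 without that pool, and 0 after removing base composition, after also removing length, at a false discovery rate of 0.01 and when either replicate was left out (0 to 0). Shares of all genes tested are not given for these 12-h counts, and nothing is read from them. The R2 of the RNA composition slope was 0.184 to 0.732 when a replicate was left out. The cause of these shifts was not tested. Nothing reversed.

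Correlations of same-numbered deviations gave little sign that replicate numbers pair the pools. Their mean was 0.03 in RNA, 0.03 in RPF and 0.05 in TE. They ran from -0.22 to 0.56 in RNA, from -0.29 to 0.26 in RPF and from -0.15 to 0.43 in TE. Of 66 pairs, 13 in RNA, 21 in RPF and 19 in TE were over 0.1, so a weak pairing is not excluded. With a replicate block 196 genes met the rule, among them all 190 members, and 36.7% peaked in the dark. The 12-h count was then 4, again with no share of all genes tested beside it. Members with few reads are limited by depth.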
